A study of Mus musculus with 12 samples.

Results

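The tricarboxylic acid cycle and the enzymes that feed pyruvate and glutamate into it were followed in 3T3-L1 adipocytes after knockdown of Zfp407. The set was 32 named genes, and each had 1 row of its own in the deposited table of 39248 rows, with a mean of at least 1 FPKM. FPKM counts sequenced fragments per length of transcript and per total of mapped fragments, so levels of different genes are given per length. 3T3-L1 is a mouse line of preadipocytes that becomes fat-storing in culture. Per the labels, differentiated cells had been electroporated with 0.75 nmol of siRNA 2 days after differentiation, and RNA sequencing was run on 12 libraries. Of these, 6 came from cells in which the zinc finger gene Zfp407 was targeted, with 3 libraries for each of 2 siRNAs. The other 6 came from cells given a control siRNA, and each library was a separate electroporation per the series' design text. The knockdown columns of the table carry the numbers 1 to 6 and no mark of the siRNA, so they were used as 1 arm of 6. The spread behind each p-value is thus that between electroporations of a single line, together with any difference between the siRNAs.

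In the cycle, citrate synthase joins acetyl-CoA to oxaloacetate, and dehydrogenases then release carbon dioxide and pass electrons to the respiratory chain. The pyruvate dehydrogenase complex makes acetyl-CoA from pyruvate, pyruvate carboxylase makes oxaloacetate, and glutamate enters as 2-oxoglutarate. In adipocytes, citrate exported from mitochondria is also the source of acetyl-CoA for fatty acid synthesis, and pyruvate carboxylase refills the cycle.

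Summed FPKM ran from 3157024 to 3519640 in the Zfp407 siRNA libraries and from 2772929 to 3748488 in the control libraries. Read depth in absolute terms is unknown, and relative to control library 1 it lay between 0.8799 and 1.153. Zfp407 itself was at 2.13, 1.93, 1.79, 1.65, 1.604 and 1.62 FPKM in knockdown libraries 1 to 6, against 2.73, 3.16, 2.798, 2.92, 2.71 and 2.701 FPKM in control libraries 1 to 6, a mean 36.9% lower. The arms did not overlap for it. The authors' own test gives Zfp407 a log2 value of -0.77 and a q-value of 0.0734, which is not marked significant. Adipocyte markers were abundant, with a summed level of the 10 listed genes between 15728 and 20245 FPKM in the knockdown arm and between 16900 and 20814 FPKM in the control arm. Of these 10, 5 were lower and 0 higher by the test used below (4 and 1 with each library centred on its median). Over all tested rows, 24.8% were lower and 11.6% higher (21.4% and 15.7% with centring). Markers of undifferentiated cells were also present, at a summed 3201 to 4040 FPKM in the knockdown arm and 3746 to 4126 FPKM in the control arm over 10 genes. Of these, Cd34 was under 1 FPKM, and of the other 9, 2 (Col1a1 and Col3a1) were lower and 0 higher. With centring 1 was lower (Col3a1 at limma adjusted p = 0.0655), and after quantile normalization 0 were (0.0799 for Col1a1 and 0.0535 for Col3a1). The 4 macrophage markers with a row summed to at most 0.206 FPKM in the knockdown arm and 0.229 FPKM in the control arm, and Adgre1 was at 0 in all libraries. A lower level in such bulk libraries cannot tell fewer cells of a type from less RNA per cell. The part of cell composition in the results was not tested.

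Of the 32 genes, 18 were lower in the knockdown arm and 0 were higher (limma on log2(FPKM + 1), Benjamini-Hochberg adjusted p below 0.05 over 14706 rows). It was also 0 higher at an unadjusted p under 0.05 and in the authors' deposited calls. That is 56.2% of the set, where 24.8% of all tested rows and 29.0% of protein-coding rows were lower. For higher values the shares were 11.6% and 9.21%. The median log2 fold change was -0.22 over the 32 genes and -0.05 over all tested rows. The arms did not overlap, with every knockdown library below every control library, for 15 of the 32 genes (46.9%, against 13.9% of all tested rows). For 0 genes did it lie above, where 5.51% of rows did. With each library centred on its median, 17 genes were lower and 0 higher, and 21.4% of all rows were lower. After quantile normalization these were 18, 0 and 22.1%. Most changes were small. Against a minimum fold of 1.2, 5 genes passed, where 3.69% of all rows were lower, namely Adhfe1, D2hgdh, Pdhb, Dlat and Suclg2. The authors' deposited table marks 3 of the 32 as significant, Adhfe1, Pdhb and Suclg2, where 1.15% of the rows tested by the authors are marked lower.

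**Figure D1:**
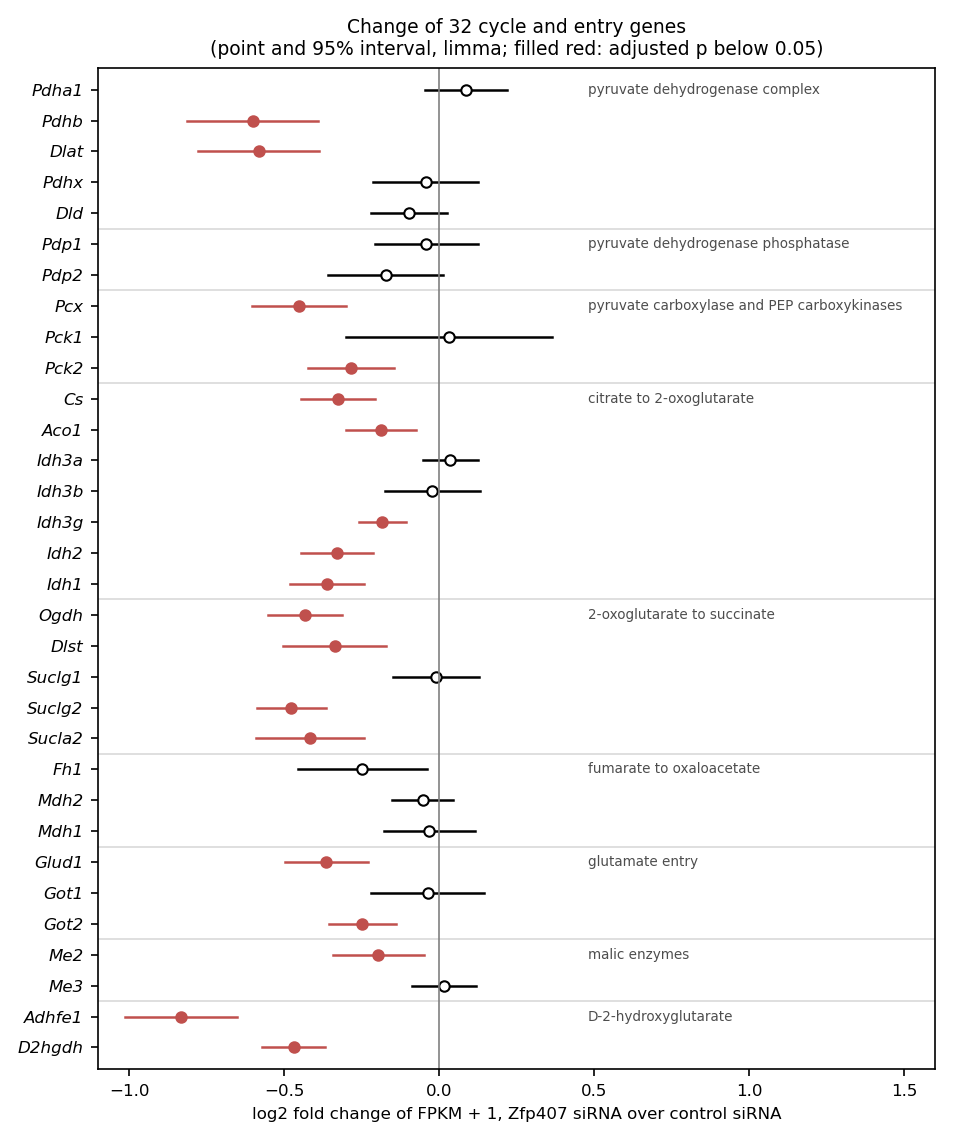
Log2 fold change of FPKM + 1 (x axis, Zfp407 siRNA over control siRNA) for each of the 32 genes (y axis, grouped by role), with the point and its 95% interval from limma over 6 libraries of each arm. Filled red points are the 18 genes with an adjusted p below 0.05, all of which lie left of 0, and the leftmost is Adhfe1 at -0.83.

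The values of an arm also carry a term of their own. In rows with a mean under 0.5 FPKM, where values are whole multiples of what 1 read is worth, that worth was unequal in the arms, beyond a log2 tolerance of 0.01, for 30.5% of 1138 rows. Between odd and even libraries it was so for 2.79% of 538 rows within the knockdown arm and 3.89% of 489 rows within the control arm. The 90th percentile of the size between the arms was 0.234, with rows that differed by 0.5 or more left out. Of the 18 lower genes, 15 had a larger log2 fold change than this, and Aco1, Idh3g and Me2 did not. The size was read from rows under 0.5 FPKM, and whether it holds at the levels of these genes was not tested. A larger change thus does not set a gene apart from the term.

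The pyruvate dehydrogenase complex did not move as a unit. Of its 5 genes, Pdhb and Dlat fell, while Pdha1, Pdhx and Dld did not pass. Pdhb encodes the beta subunit of the E1 component, which decarboxylates pyruvate. Its row (XLOC_010328, chromosome 14, 8098213 to 8173134 on GRCm38) was at 108, 104, 111, 149, 141 and 150.4 FPKM in knockdown libraries 1 to 6, against 191, 184, 190.0, 185, 204 and 196 FPKM in control libraries 1 to 6. Every knockdown library was below every control library, and knockdown libraries 1 to 3 were the lowest. The mean was 33.5% lower (127 ± 21.9 FPKM in knockdown and 192 ± 7.37 FPKM in control libraries, SD, n = 6 each), a log2 fold change of -0.60 (SE 0.10, limma adjusted p = 0.00051). The Pdhb locus is shared with Pxk, at 11.5 ± 0.866 FPKM in knockdown and 12.4 ± 0.406 FPKM in control libraries (SD, n = 6 each; log2 fold change -0.10, limma adjusted p = 0.109).

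Dlat encodes the E2 component, which passes the acetyl group to coenzyme A. It was at 65.9, 59.4, 63.3, 80.4, 87.3 and 69.05 FPKM in the knockdown libraries and at 110.5, 96.96, 102, 99.7, 114 and 112 FPKM in the control libraries. The arms did not overlap, and knockdown library 5 came nearest to the control range. Its mean was 33.04% lower (log2 fold change -0.58, SE 0.09, limma adjusted p = 3.55e-04).

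Pdha1, the X-linked alpha subunit of E1, which binds Pdhb in the same enzyme, was at 192, 196, 185, 232, 234 and 211 FPKM in the knockdown libraries and at 196, 191, 191, 190.4, 205 and 199 FPKM in the control libraries. Knockdown libraries 4 to 6 lay above every control library, and libraries 1 to 3 lay within or just below the control range. Its log2 fold change was 0.09, with a 95% interval of -0.05 to 0.22 (limma adjusted p = 0.288). The Pdha1 row spans 511.1 kb and shares its locus with a row of Map3k15 and Sh3kbp1.

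The ratio of Pdhb to Pdha1 within a library cancels the scale of that library. Its log2 was -0.82, -0.91, -0.73, -0.63, -0.72 and -0.49 in knockdown libraries 1 to 6. In control libraries 1 to 6 it was -0.04, -0.05, -0.01, -0.04, -0.01 and -0.02. The control libraries thus held both mRNAs at nearly equal FPKM with an SD of 0.017, and all 6 knockdown libraries lay below them. The difference was -0.69 (SE 0.06, n = 6 each; two-sided exact permutation p = 0.00216, the smallest possible in this design; adjusted p = 0.0173 over 8 gene pairs). A term that belongs to 1 row in a whole arm does not cancel in this ratio. The adjustment also does not cover the choice of the pairs, made with earlier results of these data known.

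Pdhx, which binds E3 to the core of the complex, had a log2 fold change of -0.04 (95% interval -0.21 to 0.13). For Dld, the E3 subunit that the 2-oxoglutarate dehydrogenase complex also uses, it was -0.10 (-0.22 to 0.03). The phosphatases that reactivate the complex, Pdp1 and Pdp2, did not pass either (log2 fold changes -0.04 and -0.17, limma adjusted p = 0.708 and 0.135). Pdp2 ran from 4.07 to 6.26 FPKM in the knockdown arm, wider than the 5.37 to 6.24 FPKM of the control arm, and it passed without knockdown library 4 (limma adjusted p = 0.0309).

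**Figure D2:**
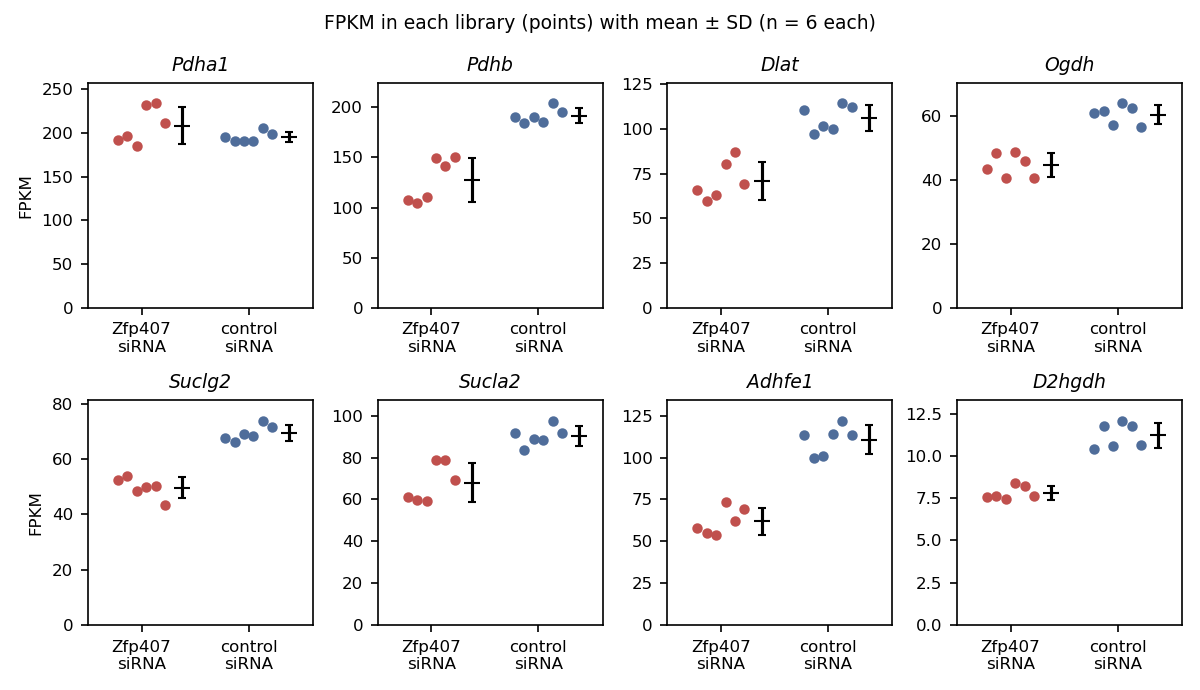
FPKM of 8 genes in each library (y axis from 0; red points Zfp407 siRNA, blue points control siRNA, with black mean ± SD, n = 6 each). The arms overlap for Pdha1 and do not overlap for Pdhb, Dlat, Ogdh, Suclg2, Sucla2, Adhfe1 and D2hgdh.

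The promoters of the 2 E1 subunits are shown because their mRNAs parted, as RefSeq gives them on GRCm38.p6, from 250 bases before the transcript start to 50 after it, 5′ to 3′ on the gene's strand. Pdhb lies at chr14:8172943-8173242 on the minus strand and Pdha1 at chrX:160138381-160138680 on the minus strand. Capitals mark the letters CCAAT, the core of the NF-Y motif, and GGGCGG, the GC box of SP1-type factors, on either strand.
Pdhb: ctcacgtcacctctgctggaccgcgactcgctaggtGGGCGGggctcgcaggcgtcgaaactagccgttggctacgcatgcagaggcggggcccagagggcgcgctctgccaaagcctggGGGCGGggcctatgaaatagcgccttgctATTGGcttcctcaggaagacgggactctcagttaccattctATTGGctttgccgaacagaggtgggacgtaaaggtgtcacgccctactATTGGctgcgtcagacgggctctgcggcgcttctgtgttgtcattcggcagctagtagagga
Pdha1: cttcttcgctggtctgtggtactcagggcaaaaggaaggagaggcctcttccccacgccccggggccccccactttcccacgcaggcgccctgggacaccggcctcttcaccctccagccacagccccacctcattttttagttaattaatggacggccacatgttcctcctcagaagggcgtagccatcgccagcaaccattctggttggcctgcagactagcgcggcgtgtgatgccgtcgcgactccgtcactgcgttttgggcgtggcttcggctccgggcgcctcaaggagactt
The Pdhb window held CCAAT 3 times, each as its reverse complement, at 101, 60 and 12 bases before the start, and GGGCGG 2 times. These distances are from the RefSeq start. GENCODE M21 (8173025) and the deposited row (8173134) place the Pdhb start further upstream. Counted from either of those, some of the matches lie after the start. In the Pdha1 window neither set of letters occurred. A match of letters is a description and not a shown binding site.

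Among enzymes that make or use oxaloacetate and phosphoenolpyruvate, Pcx and Pck2 fell and Pck1 did not pass. Pcx, pyruvate carboxylase, was at 295, 338, 294, 316, 289 and 255 FPKM in the knockdown libraries, against 411, 445, 395, 436, 393 and 364 FPKM in the control libraries. The arms did not overlap (log2 fold change -0.45, SE 0.07, limma adjusted p = 3.49e-04). Pck2, the mitochondrial phosphoenolpyruvate carboxykinase, averaged 13.03 ± 1.36 FPKM in knockdown and 16.1 ± 0.957 FPKM in control libraries (SD, n = 6 each; log2 fold change -0.28, limma adjusted p = 0.00405), with 5 of 6 knockdown libraries below the lowest control library.

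Pck1 encodes the cytosolic carboxykinase, which serves glycerol formation in adipocytes. It was at 96.3, 92.7, 98.2, 60.3, 56.6 and 56.2 FPKM in knockdown libraries 1 to 6, and at 74.3, 76.4, 68.5, 78.4, 70.1 and 69.1 FPKM in control libraries 1 to 6. Knockdown libraries 1 to 3 were above every control library and libraries 4 to 6 were below every control library. The mean over the arm hides this, with a log2 fold change of 0.03 and a 95% interval of -0.30 to 0.36 (limma adjusted p = 0.891). The columns do not say whether the libraries on either side share an siRNA, and no comparison between them was made. The estimate turned negative without knockdown library 1, 2 or 3, with log2 fold changes of -0.04, -0.03 and -0.05.

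From citrate to 2-oxoglutarate, 5 of 7 genes fell, by 12.02% to 22.3% of the control mean. Over all tested rows the lower share was 24.8%. Cs, citrate synthase, was at 166, 184, 163, 199, 187 and 164 FPKM in the knockdown libraries and at 220.3, 228, 220.3, 233, 221 and 209 FPKM in the control libraries, without overlap (log2 fold change -0.33, SE 0.05, limma adjusted p = 6.76e-04). The Cs locus also holds a row of the small RNA U8, at 8.57, 8.48, 11.9, 0, 4.41 and 8.49 FPKM in knockdown libraries 1 to 6 and listed at 0 in all 6 control libraries, opposite in direction to Cs. How reads were divided between the Cs and U8 rows was not tested. Idh1 and Idh2, the NADP-linked isocitrate dehydrogenases of cytosol and mitochondria, fell by similar amounts. Idh1 averaged 189 ± 9.93 FPKM in knockdown and 244 ± 17.9 FPKM in control libraries (SD, n = 6 each; log2 fold change -0.36). For Idh2 the means were 115 ± 9.23 and 145 ± 6.41 FPKM in the same order (log2 fold change -0.33). The log2 ratio of Idh2 to Idh1 differed between the arms by 0.03 (SE 0.05; exact permutation p = 0.567, two-sided).

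Idh3 is the NAD-linked enzyme of the cycle proper, built from alpha, beta and gamma subunits. Idh3g, the gamma subunit, averaged 166 ± 5.32 FPKM in knockdown and 188 ± 6.03 FPKM in control libraries without overlap (SD, n = 6 each; log2 fold change -0.18, SE 0.03, limma adjusted p = 0.00145). The Idh3g locus is shared with Ssr4, whose mean was 76.4 FPKM in knockdown and 89.8 FPKM in control libraries. The log2 fold change of Ssr4 was -0.23 (limma adjusted p = 0.057), and how reads were divided between the 2 rows was not tested. Idh3a, the catalytic alpha subunit, had a log2 fold change of 0.04 (95% interval -0.05 to 0.12). Idh3b was at 200.1, 191, 202, 249, 243 and 240.0 FPKM in the knockdown libraries, with libraries 1 to 3 below and libraries 4 to 6 above every control library (211 to 230.2 FPKM). Its log2 fold change was -0.02 (-0.18 to 0.13), and the locus is shared with Nop56 and Snord110. Aco1, the cytosolic aconitase that doubles as an iron sensor, fell to 80.5 ± 6.12 FPKM in knockdown libraries, against 91.7 ± 3.76 FPKM in control libraries (SD, n = 6 each; log2 fold change -0.19, limma adjusted p = 0.0136). After quantile normalization Aco1 no longer passed (limma adjusted p = 0.136).

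As grouped here, the steps from 2-oxoglutarate to succinate held the highest share of lower genes among the cycle's own steps, 4 of 5. Of all tested rows 24.8% were lower. Dld, which these steps also use and which did not pass, was grouped with the pyruvate dehydrogenase complex. Counted here, it would put this share below that of citrate to 2-oxoglutarate, 5 of 7. Ogdh, the E1 subunit that decarboxylates 2-oxoglutarate, was at 43.4, 48.4, 40.8, 48.9, 46.00 and 40.5 FPKM in the knockdown libraries and at 61.1, 61.6, 57.3, 64.01, 62.4 and 56.7 FPKM in the control libraries. Its mean was 26.2% lower without overlap (log2 fold change -0.43, SE 0.06, limma adjusted p = 9.17e-05; adjusted p = 0.0724 against a minimum fold of 1.2). Dlst, the E2 subunit, was at 59.8, 59.9, 57.8, 77.2, 77.9 and 70.2 FPKM in the knockdown libraries, while the control libraries lay between 82.1 and 86.1 FPKM. All 6 were below the control range, libraries 1 to 3 furthest (log2 fold change -0.34, limma adjusted p = 0.00425).

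Succinyl-CoA ligase is a dimer of the alpha subunit Suclg1 with 1 of 2 beta subunits, Suclg2 for GDP or Sucla2 for ADP. Suclg2 was at 52.3, 53.98, 48.6, 49.9, 50.3 and 43.3 FPKM in the knockdown libraries and at 67.6, 66.3, 69.1, 68.4, 73.9 and 71.7 FPKM in the control libraries (log2 fold change -0.48, SE 0.05, limma adjusted p = 2.25e-05). Sucla2 was at 61.04, 59.9, 59.2, 78.8, 79.01 and 69.3 FPKM in the knockdown libraries, and between 83.5 and 97.6 FPKM in the control libraries (log2 fold change -0.42, SE 0.08, limma adjusted p = 0.00158). Neither gene overlapped between the arms. The shared subunit Suclg1 averaged 172 ± 14.5 FPKM in knockdown and 173 ± 12.6 FPKM in control libraries (SD, n = 6 each), a log2 fold change of -0.01 with a 95% interval of -0.15 to 0.13. Whether Suclg1 differed from its partners was not tested.

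The mean ratio of the beta subunits did not differ detectably, but its spread did not match between the arms. The log2 ratio of Suclg2 to Sucla2 was -0.22, -0.15, -0.28, -0.65, -0.64 and -0.67 in knockdown libraries 1 to 6, and lay between -0.44 and -0.33 in the control libraries. Libraries 1 to 3 were thus above every control library and libraries 4 to 6 below every control library. The difference of the means was -0.06 (SE 0.10; exact permutation p = 0.565, two-sided). The SD was 0.243 in the knockdown arm and 0.0382 in the control arm (n = 6 each), a difference in spread that was seen in the data and not tested.

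The promoters of Suclg2 and of Suclg1 are shown for the same contrast between a subunit that fell and a partner that did not pass, again from RefSeq on GRCm38.p6 with the same letters in capitals. They lie at chr6:95718797-95719096 on the minus strand and chr6:73248255-73248554 on the plus strand.
Suclg2: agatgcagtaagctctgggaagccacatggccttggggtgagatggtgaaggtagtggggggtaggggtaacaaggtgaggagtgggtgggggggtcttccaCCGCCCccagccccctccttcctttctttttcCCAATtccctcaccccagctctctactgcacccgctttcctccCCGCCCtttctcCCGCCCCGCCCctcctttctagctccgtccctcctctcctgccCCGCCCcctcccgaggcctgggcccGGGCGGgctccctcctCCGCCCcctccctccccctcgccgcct
Suclg1: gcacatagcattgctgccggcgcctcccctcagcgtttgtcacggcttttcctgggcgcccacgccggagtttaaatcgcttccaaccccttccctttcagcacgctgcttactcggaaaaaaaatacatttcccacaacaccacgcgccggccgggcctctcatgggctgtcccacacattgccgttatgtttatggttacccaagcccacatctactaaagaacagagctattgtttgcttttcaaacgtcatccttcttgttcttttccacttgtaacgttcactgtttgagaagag
The Suclg2 window held GGGCGG or its reverse complement 7 times, with 1 pair of these overlapping, and CCAAT 1 time. The Suclg1 window held neither. By the start of its deposited row, 73248382, which is also that of GENCODE M21, the Suclg1 window holds fewer bases before the start than stated above. Over the 28 genes with a window, GGGCGG occurred in 14 of 16 windows of lower genes and 6 of 12 of the others. CCAAT occurred in 8 of 16 and 7 of 12 in the same order. The contrast did not hold for each gene. The Got2 window held neither set of letters and Got2 fell, while that of Got1 held CCAAT 6 times and Got1 did not pass. Idh3g also fell with neither, and Pdhx and Mdh1 held both and did not pass.

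From fumarate to oxaloacetate 0 of 3 genes passed, with 1 of them at an unadjusted p under 0.05. That was Fh1, fumarase, at 117 ± 15.2 FPKM in knockdown and 139 ± 14.04 FPKM in control libraries (SD, n = 6 each; log2 fold change -0.25, 95% interval -0.46 to -0.04, limma adjusted p = 0.0597). Fh1 passed without knockdown library 4 or 5 or without control library 2 (limma adjusted p = 0.0472, 0.0309 and 0.016) and after quantile normalization (0.0363). Mdh2, the mitochondrial malate dehydrogenase, and Mdh1, its cytosolic counterpart, were the most abundant mRNAs of the set. Mdh2 averaged 477 ± 25.3 FPKM in knockdown and 494 ± 18.8 FPKM in control libraries, and Mdh1 661 ± 62.9 and 674 ± 38.3 FPKM in the same order (SD, n = 6 each). Their log2 fold changes were -0.05 (95% interval -0.15 to 0.05) and -0.03 (-0.18 to 0.11). After quantile normalization Mdh1 passed in the lower direction (limma adjusted p = 0.0329). The Mdh1 locus is shared with Wdpcp, which was lower, at 5.46 ± 0.838 FPKM in knockdown and 9.58 ± 1.36 FPKM in control libraries (SD, n = 6 each; log2 fold change -0.71, limma adjusted p = 3.11e-04).

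At the entry of glutamate, Glud1 and Got2 fell and Got1 did not pass. Glud1, glutamate dehydrogenase, was at 98.7, 89.5, 93.8, 101, 109.6 and 92.3 FPKM in the knockdown libraries and between 110.1 and 139 FPKM in the control libraries. The highest knockdown library lay just under the lowest control library (log2 fold change -0.36, SE 0.06, limma adjusted p = 6.76e-04). Got2, the mitochondrial aspartate aminotransferase, averaged 55.4 ± 4.403 FPKM in knockdown and 65.8 ± 1.305 FPKM in control libraries, without overlap (SD, n = 6 each; log2 fold change -0.25, limma adjusted p = 0.00203). A pseudogene row, Got2-ps1, was at 6.17 FPKM in knockdown and 6.79 FPKM in control libraries, and reads could be divided between the copies. Got1, the cytosolic form, was at 18.1 ± 2.84 FPKM in knockdown and 18.4 ± 0.938 FPKM in control libraries. The log2 ratio of Got2 to Got1 was lower by -0.21 in the knockdown arm (exact permutation p = 0.039, two-sided, adjusted p = 0.15 over 8 pairs), so it did not pass.

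Malic enzymes turn malate into pyruvate. Me2, which prefers NAD, fell to 12.2 ± 1.41 FPKM in knockdown libraries, against 14.05 ± 0.818 FPKM in control libraries (SD, n = 6 each; log2 fold change -0.20, limma adjusted p = 0.0388). The call of Me2 was weak, being lost without any of knockdown libraries 1, 2, 3 and 6 or control libraries 1, 3, 5 and 6 (limma adjusted p up to 0.0831) and with libraries centred on their medians (0.0542). Me3, the NADP-linked mitochondrial form, was the least abundant gene of the set, at 2.16 ± 0.141 FPKM in knockdown and 2.12 ± 0.112 FPKM in control libraries.

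The largest fall of the 32 was in Adhfe1, and its neighbour in metabolism, D2hgdh, fell as well. ADHFE1 oxidises gamma-hydroxybutyrate while reducing 2-oxoglutarate to D-2-hydroxyglutarate, and D2HGDH returns D-2-hydroxyglutarate to 2-oxoglutarate. Adhfe1 (XLOC_000021, chromosome 1, 9547948 to 9631175) was at 58.1, 54.7, 53.8, 73.5, 62.1 and 69.5 FPKM in knockdown libraries 1 to 6, against 114, 99.7, 101, 114, 122 and 114 FPKM in control libraries 1 to 6. Every knockdown library was well below every control library. The mean was 44.05% lower (log2 fold change -0.83, SE 0.08, limma adjusted p = 1.29e-05), and the authors' deposited table gives -0.83 with a q-value of 0.0132. The Adhfe1 row runs past the end of the gene in GENCODE M21, 9580673, and its span also holds the coding gene Vxn. Another row at the locus, 2610203C22Rik, was also lower, at 9.11 ± 0.814 FPKM in knockdown and 14.8 ± 1.503 FPKM in control libraries (SD, n = 6 each; log2 fold change -0.64, limma adjusted p = 2.44e-05). The row of Gm6161, also at the locus, did not pass (log2 fold change -0.05, limma adjusted p = 0.429). How reads were divided between these rows was not tested.

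D2hgdh (XLOC_000491, chromosome 1, 93825240 to 93876494) was at 7.599, 7.63, 7.43, 8.41, 8.198 and 7.61 FPKM in the knockdown libraries and at 10.4, 11.8, 10.6, 12.1, 11.8 and 10.7 FPKM in the control libraries. The knockdown libraries lay close together, all below the control range (log2 fold change -0.47, SE 0.05, limma adjusted p = 1.26e-05; adjusted p = 0.0101 against a minimum fold of 1.2). The D2hgdh row runs past the end of the gene in GENCODE M21, 93852348, and its span also holds the coding gene Gal3st2. Of 4 other rows at the locus, 0 had a mean of at least 1 FPKM. For D2hgdh the authors' deposited table gives a log2 value of -0.52 and a q-value of 0.606, which is not marked significant. The D2hgdh promoter is shown as that of the lower gene of this pair with a RefSeq entry, at chr1:93824990-93825289 on the plus strand of GRCm38.p6, with GGGCGG in capitals at 81 and 43 bases before the start. GENCODE M21 places the start of the gene further upstream, at 93824909.
D2hgdh: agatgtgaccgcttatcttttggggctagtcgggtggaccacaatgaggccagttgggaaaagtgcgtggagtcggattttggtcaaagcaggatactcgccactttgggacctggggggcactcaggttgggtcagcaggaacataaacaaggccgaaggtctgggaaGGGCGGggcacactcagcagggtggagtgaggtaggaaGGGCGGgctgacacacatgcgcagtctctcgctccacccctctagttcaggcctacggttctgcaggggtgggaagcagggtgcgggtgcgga

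**Figure D3:**
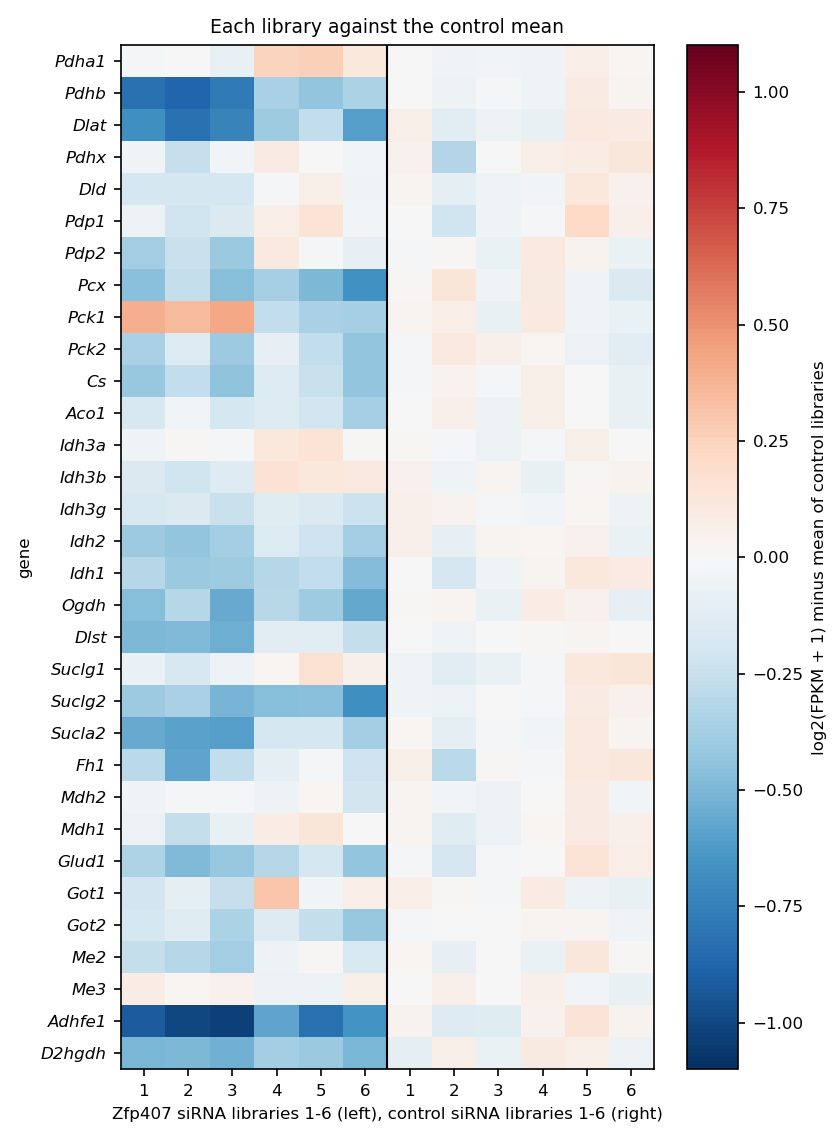
Log2(FPKM + 1) of each of the 32 genes (rows) in each library (columns; Zfp407 siRNA libraries 1 to 6 left of the line, control siRNA libraries 1 to 6 right of it) minus the mean of the control libraries, blue for lower and red for higher. Adhfe1, Pdhb and Dlat are blue in all 6 knockdown libraries, and Pck1 is red in knockdown libraries 1 to 3 and blue in libraries 4 to 6.

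The knockdown libraries differed in how far the set was lowered. Against the control mean, the median log2 difference over the 32 genes was -0.28, -0.26, -0.36, -0.13, -0.17 and -0.30 in knockdown libraries 1 to 6. In control libraries 1 to 6 it lay between -0.04 and 0.07. Of the 32 genes, 30, 28, 30, 23, 23 and 25 were below their control mean in knockdown libraries 1 to 6. Libraries 4 and 5 lay nearest to the control arm. Zfp407 itself was lower in libraries 4 to 6 than in libraries 1 to 3, as given above. Knockdown library 6 had the highest share of summed FPKM on mitochondrial DNA, 32.8%, against 19.4% to 26.3% in the other knockdown libraries and 22.7% to 25.3% in the control libraries. Without it, 17 genes were lower and 0 higher.

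Of 8 pairs of related genes, compared as log2 ratios within each library, Pdhb to Pdha1 was the one that differed between the arms after adjustment. The pairs were chosen with earlier results of these data known, and the adjustment does not cover that choice. The other 7 were Idh2 to Idh1, Mdh2 to Mdh1, Got2 to Got1, Pck2 to Pck1, Me3 to Me2, Suclg2 to Sucla2 and Pdp2 to Pdp1, with differences between -0.32 and 0.21 (exact permutation, adjusted p from 0.15 to 0.794). The pairs with the widest knockdown arm were Pck2 to Pck1, with an SD of 0.437 against 0.0805 in the control arm, and Suclg2 to Sucla2.

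**Figure D4:**
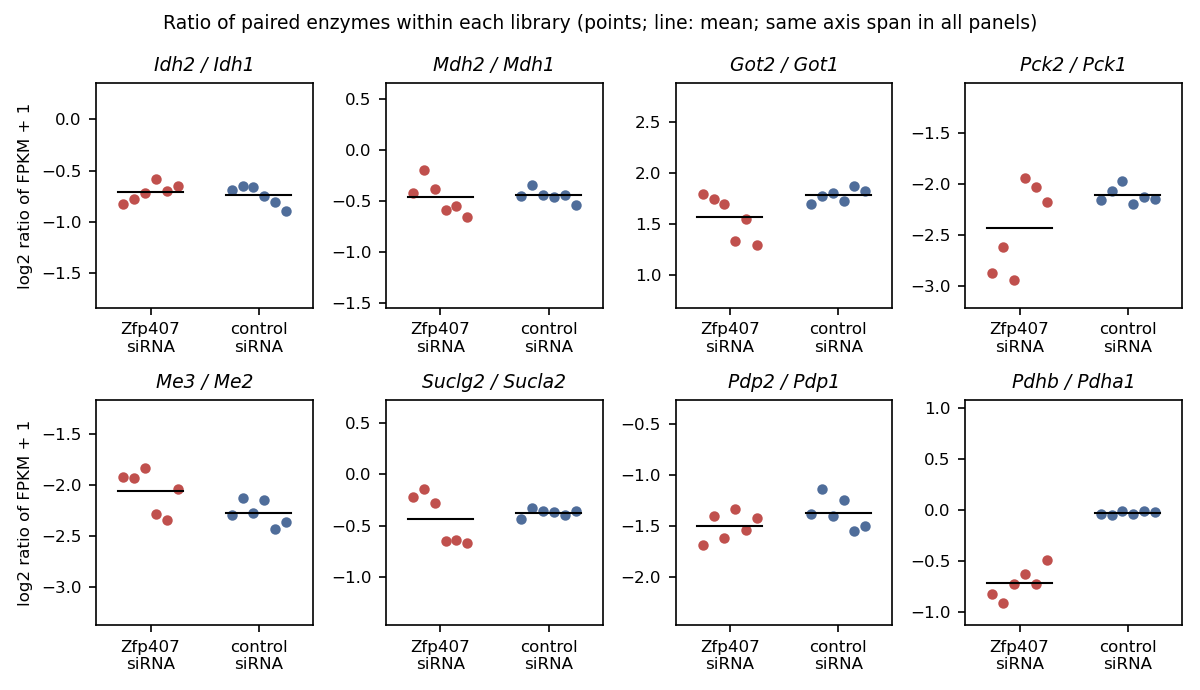
Log2 ratio of FPKM + 1 of 2 related genes in each library (y axis, the same span in each panel; red points Zfp407 siRNA, blue points control siRNA, line at the mean, n = 6 each) for 8 pairs. The knockdown libraries lie below all control libraries for Pdhb over Pdha1, and on both sides of the control libraries for Suclg2 over Sucla2.

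By compartment, 16 of 27 genes of mitochondrial enzymes (59.3%) and 2 of 5 genes of cytosolic enzymes (40.0%, Idh1 and Aco1) were lower. The share was 24.8% over all tested rows and 29.0% over protein-coding rows. The difference between compartments was not tested. The genes lie on 15 chromosomes. Across the 32 genes, Spearman's rho of the log2 fold change was -0.21 with transcript length, -0.04 with GC content, 0.04 with the control level and -0.41 with the number of transcripts annotated in GENCODE M21. Genes are not independent replicates, since all were read in the same libraries, and these values are a description.

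Promoters of 28 of the 32 genes were matched in the RefSeq table by symbol, and those of Pdp1, Idh3a, Me2 and Adhfe1 were not. Of these 28 windows, 20 held GGGCGG (71.4%, against 46.2% of 21263 promoters of protein-coding genes), 14 of 16 among the lower genes and 6 of 12 among the others. CCAAT occurred in 15 (53.6%, against 38.2%), 8 of 16 and 7 of 12 in the same order. The windows were rich in CG pairs, with a median of 19 against 13 in promoters of protein-coding genes, and GGGCGG itself holds CG. The median was 21.5 in the 16 windows of lower genes and 18 in the 12 of the others. AAGGTCA, the half-site of ERR receptors, occurred in 1 window, that of Got1 (3.57%, against 4.08%). CACGTG, the E-box, occurred in 2 (7.14%, against 7.84%) and the palindromic NRF1 motif in 0 (against 1.33%). Both strands were searched, and overlapping matches were counted.

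Of 28 listed genes next to the cycle that are not in the set, 27 had a row of their own, and 15 fell, 3 rose and 9 did not pass. The lower share was 55.6%, where 24.8% of all tested rows were lower, and the higher share was 11.1%, near the 11.6% of all rows. Those that passed against a minimum fold of 1.2 were all lower. Slc25a11, the mitochondrial 2-oxoglutarate carrier, averaged 56.8 ± 4.21 FPKM in knockdown and 91.5 ± 3.41 FPKM in control libraries (SD, n = 6 each; log2 fold change -0.68, limma adjusted p = 9.66e-07). Pdk1, a kinase that inhibits the pyruvate dehydrogenase complex, had a log2 fold change of -0.68, the citrate carrier Slc25a1 one of -0.65, and Acly, which splits exported citrate, one of -0.57.

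Other genes that fell included Sdha (the flavoprotein of succinate dehydrogenase), Pdk3, Pdpr (a regulator of the phosphatase), Mpc1 (a mitochondrial pyruvate carrier subunit, listed as Brp44l), Me1 (cytosolic malic enzyme), Gpt2 (mitochondrial alanine aminotransferase), Slc25a10 (dicarboxylate carrier), Slc25a22 (glutamate carrier), Ldhb and Nnt, with log2 fold changes from -0.47 to -0.08. Ldhb, a lactate dehydrogenase subunit, was a weak call, lost with centring (log2 fold change -0.05, limma adjusted p = 0.184), after quantile normalization (-0.04, 0.414) and without any of 9 libraries (up to 0.0848; knockdown libraries 1, 2, 5 and 6 and control libraries 1, 2, 3, 5 and 6). Mpc1 was at the threshold without control library 6 (limma adjusted p = 0.0501). The 3 that rose were Sdhd, a membrane anchor of succinate dehydrogenase (150.5 ± 12.4 FPKM in knockdown and 128 ± 9.001 FPKM in control libraries; SD, n = 6 each; log2 fold change 0.23, limma adjusted p = 0.0126), Glul, glutamine synthetase (log2 fold change 0.26), and Pdk4 (log2 fold change 0.20). The changes of Sdhd and Pdk4 are not larger than the 0.234 given above for the term between the arms. Of the other subunits of succinate dehydrogenase, Sdhc had a log2 fold change of 0.09 and did not pass. Sdhb had one of 0.20 (limma adjusted p = 0.0542), and passed as higher with centring (0.0183), after quantile normalization (0.0139) and without knockdown library 1 or 2 (0.0334 and 0.0205). The call of Sdha was weak (limma adjusted p = 0.0381), and was lost without any of knockdown libraries 1, 2, 3 and 6 or control libraries 1, 3, 4, 5 and 6 (up to 0.0822). None of the 3 rises passed against a minimum fold of 1.2. Among the 9 that did not pass, the highest log2 fold change was 0.33, for Slc25a12, an aspartate and glutamate carrier (limma adjusted p = 0.369).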

How the data were processed

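Per the submitters' processing notes, Cufflinks 2.0.2 and TopHat2 2.0.5 were used, with SAMtools 0.1.18.0 and Bowtie2 2.0.0.7, in no stated order and with no settings. Not given in the sources used here are the genome build, the annotation and whether strand was kept. The authors deposited 1 table with an FPKM value per gene and library. Per the file headers it also holds the authors' own value for either arm, their log2 fold change, and a p-value and q-value of Zfp407 siRNA against control. Of 18473 protein-coding rows, 99.6% overlapped the gene's position in GENCODE M21, so positions are given on GRCm38, counted from 1.

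The test was limma 3.58.1 (R 4.3.3) on log2(FPKM + 1), with an intensity trend, two-sided, over the 14706 rows with a mean of at least 1 FPKM in 12 libraries, with a threshold of 0.05 after Benjamini-Hochberg adjustment. Fold changes are on that scale, which understates those of low genes. Ratios of 8 gene pairs were compared with exact permutation tests (scipy 1.17.1). Scripts were tested on simulated data. The members, the lists and the pairs were chosen with earlier results of these data known. Every member is described, and genes of the neighbouring list are named where they passed, apart from a few genes that are not reported here. Of the members, 10 share a locus with another row of at least 1 FPKM, whose reads had to be divided. They are Pdha1, Pdhb, Pcx, Cs, Idh3b, Idh3g, Dlst, Sucla2, Mdh1 and Adhfe1. By GENCODE M21, the loci of 12 members hold another protein-coding gene, whether or not it had such a row.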

Additional observations from a re-analysis of the deposited data

Results flagged for a closer look

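Of 64 groups of 6 libraries (32 genes in 2 arms), 3 held a library that stood far from the other 5 by Dixon's test, and chance gives about 1 in 20. Mdh2 was at 429 FPKM in knockdown library 6, against 475 to 502 FPKM in the other knockdown libraries. In control library 2, Pdhx was at 39.6 FPKM, against 49.7 to 54.6 FPKM in the other control libraries. Fh1 was also low in control library 2, at 112 FPKM against 137 to 150.1 FPKM in the others.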

How the results depend on the processing

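The count of 18 lower genes ran from 17 to 18 with a pseudocount of 0.1, without a filter, with a filter at a mean of 5 FPKM (where Me3 was not tested), with centring, after quantile normalization and without the trend. It fell to 5 against a minimum fold of 1.2 and to 3 by the authors' deposited calls. Leaving out each library in turn gave 17 to 20 lower and 0 higher. Neighbouring genes fell to 4 lower and 0 higher against a minimum fold of 1.2, and all rows to 543 lower and 313 higher. The 3 rises among neighbouring genes became 4 with centring. Centring gave 3146 rows lower and 2307 higher over the whole table, against 3648 and 1712.

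Small changes of genes with no call turned sign under some settings, and were not called there either. With centring, the log2 fold change was 0.0107 for Idh3b, 0.0226 for Suclg1 and 0.00168 for Mdh1. After quantile normalization it was 0.0135 for Pdhx, 0.0020 for Idh3b, 0.0158 for Suclg1 and 0.00219 for Got1. Over the leave-one-out fits it ran from -0.084 to 0.00272 for Pdp1, -0.0484 to 0.111 for Pck1, -0.0595 to 0.0168 for Idh3b, -0.0469 to 0.0224 for Suclg1, -0.0645 to 0.0141 for Mdh1, -0.105 to 0.00777 for Got1 and -0.000758 to 0.0325 for Me3, and the Mdh2 to Mdh1 difference from -0.0745 to 0.017. The Pdhb to Pdha1 difference ran from -0.74 to -0.65 (adjusted p = 0.0346 throughout, exact permutation). The cause of these shifts was not tested.

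No paired analysis was possible because the numbers of the knockdown columns are not tied to the sample numbers in the labels. Depth is unknown in absolute terms.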
